A study of Mus musculus with 2 samples.

Results

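The miR-29 family was examined in small RNA libraries of ethanol-fed and pair-fed mouse liver. Its members were found by name: mmu-miR-29a-3p, mmu-miR-29b-3p and mmu-miR-29c-3p, and the opposite strands mmu-miR-29a-5p, mmu-miR-29b-2-5p and mmu-miR-29c-5p. The species prefix is left out from here on. All 6 names were listed in both deposited tables, among 484 microRNA names in experiment 1 and 1915 in experiment 2.

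MicroRNAs of this family repress messenger RNAs that carry a match to the seed, the bases at positions 2 to 8 of the mature strand. The family is best known for repressing collagen and other matrix genes, and in liver its level is known to fall in stellate cells, the collagen-producing cells of the organ, when they become activated. The 3p strands are the guide strands loaded into Argonaute, while the 5p strands are mostly degraded.

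The mature sequences are shown because the 3 guide strands share a seed and differ only downstream of it, whereas the 5p strands share no seed. They are given 5′ to 3′ from RefSeq (GRCm38.p6), with the seed in capitals.
miR-29a-3p: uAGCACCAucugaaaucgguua
miR-29c-3p: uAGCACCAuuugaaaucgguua
miR-29b-3p: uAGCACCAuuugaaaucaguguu
miR-29a-5p: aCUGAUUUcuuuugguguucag
miR-29c-5p: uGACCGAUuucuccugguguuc
miR-29b-2-5p: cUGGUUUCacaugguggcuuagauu

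Counted from the 5′ end, miR-29a-3p and miR-29c-3p differ by C10U alone, with 21 of 22 bases identical. miR-29b-3p is 23 nt long, and over the 22 bases compared it differs from miR-29c-3p by G18A, U21G and A22U. Of 1679 mature microRNAs in the reference, only these 3 have the seed AGCACCA. Because 1 base separates miR-29a-3p from miR-29c-3p, counting that tolerates a mismatch could move reads between them, and how mismatches were treated is not given in the sources used here.

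The family is encoded by a pair of gene clusters. On the minus strand of chromosome 6, Mir29a (chr6:31062660-31062747) lies 275 bases from Mir29b-1 (chr6:31063023-31063093). On the plus strand of chromosome 1, Mir29b-2 (chr1:195037040-195037120) lies 426 bases from Mir29c (chr1:195037547-195037634). In GENCODE vM21 the chromosome 1 hairpins lie in an exon of 1 transcript of the noncoding gene A330023F24Rik and antisense to an exon of 1 transcript of Cd46. Mir29a overlapped no annotated gene other than its own, and Mir29b-1 touches an exon of the noncoding gene Gm27019. Both clusters give the identical miR-29b-3p, so its reads cannot be assigned to one cluster. The 5p strands of miR-29b do differ, as miR-29b-1-5p comes from chromosome 6 and miR-29b-2-5p from chromosome 1.

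All animals were 8- to 10-week-old female C57BL/6 mice that took liquid control Lieber-DeCarli diet for 5 days before the groups diverged. Ethanol-fed mice then received this diet with 5% (v/v) ethanol for 10 days and were gavaged with ethanol at 6 g/kg on day 16. Pair-fed mice received an isocaloric control diet and a gavage of isocaloric dextrin-maltose, and livers of both groups were taken 9 h after the gavage. The design statement of the series gives 16 days of ethanol feeding instead. The labels hold 1 sample per condition, the number of animals behind a library is not given in the sources used here, and each table holds 1 library per condition. No test was made within a table, and intervals of levels, shares and folds cover counting error only, since each condition of a table is 1 library. PCR copies were not told apart, so the intervals may be too narrow even for counting error. The study describes independent experiments, and the tables were therefore also taken as 2 pairs in 1 test, given after the ratios of each table. Its p-values set the mean log2 ratio of a microRNA against the spread between the tables. That spread was partly shared over all microRNAs in the test, so it is not the spread of the single microRNA alone.

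Experiment 1 was deposited as reads, with 4170601 reads on microRNAs with pair feeding and 4311802 with ethanol. Experiment 2 was deposited as RPM, the reads of a microRNA out of every 1000000 reads on microRNAs. Small values were multiples of 0.0925 RPM for pair feeding and of 0.0924 RPM for ethanol, and this unit was taken as 1 read, which puts the totals at an estimated 10811702 and 10819690 reads. The lowest listed value was 0.92 RPM, about 10 reads, so a microRNA listed at 0 in experiment 2 may have had fewer. Levels of the 2 tables were scaled separately and are set side by side without a test. The hepatocyte markers miR-122-5p, miR-122-3p, miR-192-5p and miR-802-5p were above 0 in all 4 libraries, with summed levels of 391291 and 375459.7 RPM with pair feeding and with ethanol in experiment 1 and of 300667 and 266848 RPM in experiment 2. In experiment 1 most of the sum came from miR-192-5p, with 388161 and 373089.7 RPM. In both experiments 3 of the 4 markers had log2 ratios below 0 with ethanol, among them miR-122-5p (-0.43 and -0.22), and miR-802-5p was higher. miR-122-5p, the most characteristic microRNA of hepatocytes, differed widely in level between the tables, with 2971 and 182938 RPM in the pair-fed libraries of experiments 1 and 2.

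miR-29a-3p was the main form of the family in each of the 4 libraries, and the guide strands far exceeded the 5p strands. miR-29a-3p had 336 RPM with pair feeding (95% Wilson interval 319 to 354, 1403 reads) and 491 RPM with ethanol (471 to 513, 2118 reads) in experiment 1. In experiment 2 it had 3241 RPM (3207 to 3275) with pair feeding and 3362 RPM (3328 to 3397) with ethanol. It ranked 57 and 50 among all microRNAs with pair feeding and with ethanol in experiment 1, and 28 and 29 in experiment 2. It was thus a microRNA of middle to high abundance, and its share of all microRNA reads was larger in experiment 2, by 9.63 times with pair feeding and 6.85 times with ethanol.

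miR-29c-3p, made from chromosome 1 only, had 34.8 RPM (29.6 to 40.9, 145 reads) with pair feeding and 48 RPM (41.9 to 55, 207 reads) with ethanol in experiment 1. In experiment 2 its levels were 57.4 RPM (53.1 to 62.1) and 56.3 RPM (52 to 60.9), nearly the same in both libraries. miR-29b-3p, the form made by both clusters, had 12.9 RPM (9.92 to 16.9, 54 reads) with pair feeding and 16.5 RPM (13.1 to 20.8, 71 reads) with ethanol in experiment 1. In experiment 2 it had 167 RPM (160.0 to 175) and 212 RPM (204 to 221). The order of these forms was therefore not the same in the 2 tables: miR-29c-3p was above miR-29b-3p in both libraries of experiment 1 and below it in both libraries of experiment 2.

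**Figure D1:**
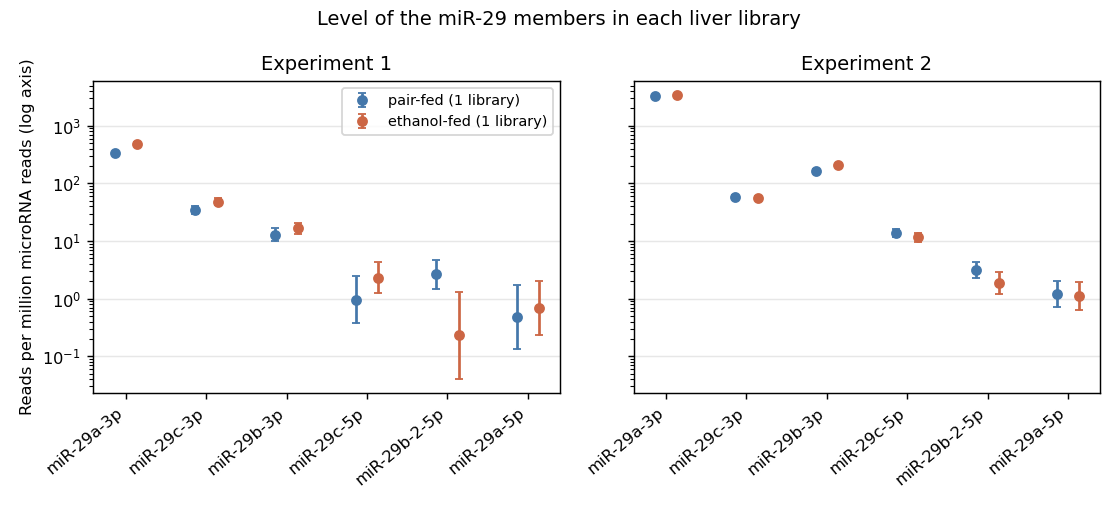
Level of each miR-29 member in RPM on a log axis, with 95% Wilson intervals, for 1 pair-fed (blue) and 1 ethanol-fed (orange) library in each experiment. miR-29a-3p is highest in all 4 libraries, at 336 and 491 RPM in experiment 1 and 3241 and 3362 RPM in experiment 2, and miR-29c-3p and miR-29b-3p change places between the experiments.

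The 5p strands were rare. miR-29c-5p had 4 reads (0.959 RPM) with pair feeding and 10 reads (2.32 RPM) with ethanol in experiment 1, and 13.8 and 11.6 RPM in experiment 2. miR-29b-2-5p had 11 reads (2.64 RPM) and 1 read (0.232 RPM) in experiment 1, and 3.14 and 1.85 RPM in experiment 2. miR-29a-5p, the partner of the most abundant guide, had 2 and 3 reads in experiment 1 and 1.2 and 1.11 RPM in experiment 2, close to the lowest value that table lists. The chromosome 6 form miR-29b-1-5p, which was not among the 6 members, had 3 and 1 reads in experiment 1 and was listed at 0 in both libraries of experiment 2. The order of the 5p strands in experiment 2 was miR-29c-5p, miR-29b-2-5p and miR-29a-5p in both libraries, although the intervals of miR-29b-2-5p (1.2 to 2.86 RPM) and miR-29a-5p (0.634 to 1.94 RPM) overlapped with ethanol. In experiment 1 their intervals overlapped within each library, and the order differed between the libraries. miR-29b-2-5p had the most reads of the 5p strands with pair feeding (11 reads) and miR-29c-5p with ethanol (10 reads). Overlap of intervals is not a test of order, and none was made.

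The makeup of the guide strands was compared next within each library, where the total on microRNAs plays no part. miR-29a-3p made up 87.6% of the reads on the 3 guide strands (85.9% to 89.1%) with pair feeding and 88.4% (87.1% to 89.6%) with ethanol in experiment 1. In experiment 2 its share was 93.5% (93.3% to 93.8%) and 92.6% (92.3% to 92.9%). The chromosome 6 form hence supplied most of the shared seed throughout. The ratio of miR-29a-3p to miR-29c-3p reads was 9.68 and 10.2 with pair feeding and with ethanol in experiment 1, against 56.4 and 59.7 in experiment 2.

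The exchange between miR-29b-3p and miR-29c-3p was a wide contrast between the tables. miR-29b-3p made up 27.1% (21.4% to 33.7%) and 25.5% (20.8% to 31%) of the reads on these 2 forms with pair feeding and with ethanol in experiment 1. In experiment 2 it made up 74.5% (72.7% to 76.2%) and 79% (77.5% to 80.5%). The intervals of the 2 tables were far apart, while the 2 conditions of a table lay close together. Between the tables, the RPM of miR-29b-3p in the pair-fed libraries differed 12.9-fold and that of miR-29c-3p 1.65-fold, and the median over shared microRNAs with reads in both was 2.71-fold. Tables and any difference in animals, library preparation or read counting cannot be told apart.

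The strands of miR-29c were divided differently as well. miR-29c-5p made up 2.68% (1.05% to 6.7%) of the reads from miR-29c with pair feeding and 4.61% (2.52% to 8.27%) with ethanol in experiment 1, against 19.4% (16.7% to 22.3%) and 17.1% (14.6% to 20%) in experiment 2. For miR-29a the 5p strand made up 0.142% and 0.141% of the reads in experiment 1 and 0.0371% and 0.033% in experiment 2. The 5p strand was thus a larger share of miR-29c than of miR-29a in every library. For miR-29b the 5p strands of both clusters were summed. In experiment 2 miR-29b-1-5p was listed at 0, so only miR-29b-2-5p counts there, and the share may be too low. With pair feeding the share went the other way between the tables, whereas with ethanol the intervals of the tables overlapped. The share was 20.6% (12.7% to 31.6%, 14 of 68 reads) with pair feeding and 2.74% (0.755% to 9.45%, 2 of 73 reads) with ethanol in experiment 1, against 1.84% (1.32% to 2.56%) and 0.863% (0.559% to 1.33%) in experiment 2. In both tables it was lower with ethanol, by more than the counting intervals in experiment 1 and with intervals that just overlap in experiment 2.

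**Figure D2:**
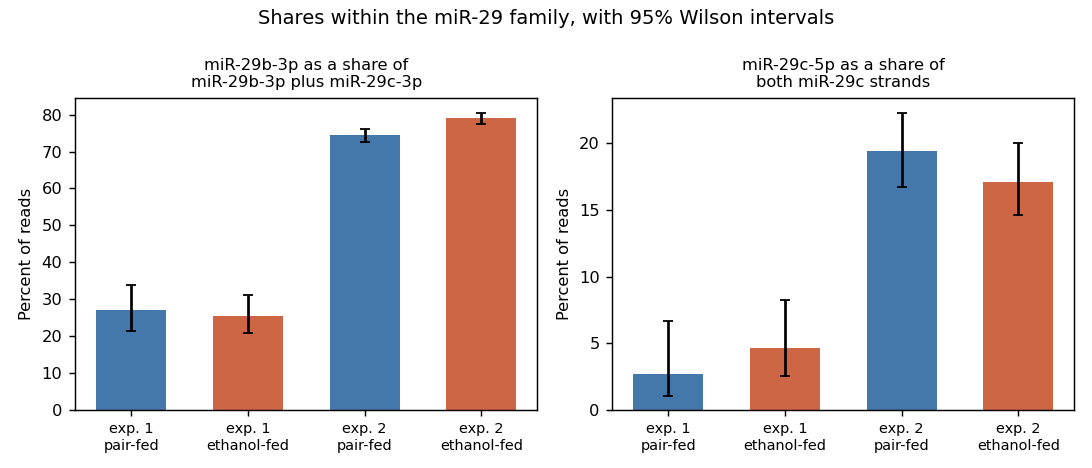
Left, miR-29b-3p as a percentage of the reads on miR-29b-3p and miR-29c-3p; right, miR-29c-5p as a percentage of the reads on both strands of miR-29c. Bars are single libraries with 95% Wilson intervals, and in both panels the bars of experiment 2 (74.5% and 79%, 19.4% and 17.1%) stand above those of experiment 1 (27.1% and 25.5%, 2.68% and 4.61%), whichever the diet.

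Whether ethanol feeding went with a different level of the family was asked within each table. In experiment 1 the guide strands were all higher with ethanol, by less than 2-fold. In experiment 2 only miR-29b-3p stood apart by a similar amount, and miR-29a-3p and miR-29c-3p were nearly level. None of the guide strands reached 2-fold in either experiment.

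The 6 members together had 388 RPM (369.7 to 408) with pair feeding and 559 RPM (537 to 582) with ethanol in experiment 1, a 1.44-fold difference (exact counting interval 1.35 to 1.53). In experiment 2 the sums were 3484 RPM (3449 to 3519) and 3646 RPM (3610.2 to 3682), a 1.05-fold difference (1.03 to 1.06). Both counting intervals leave out 1, and the differences themselves differ from each other by more than these intervals. The mean of the 2 log2 ratios was 0.30.

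miR-29a-3p was 1.46-fold higher with ethanol in experiment 1 (1.36 to 1.56) and 1.04-fold higher in experiment 2 (1.02 to 1.05). miR-29c-3p was 1.38-fold higher in experiment 1 (1.11 to 1.72) and at 0.98 of the pair-fed level in experiment 2 (0.875 to 1.1). miR-29b-3p was at 1.27 times the pair-fed level in both experiments, with an interval of 0.88 to 1.85 in experiment 1 and of 1.19 to 1.35 in experiment 2. Its ratio in experiment 1 is therefore within counting error, whereas the ratio in the deeper experiment 2 is not. In experiment 2 the share of miR-29b-3p among the guide strands was 4.83% (4.62% to 5.05%) with pair feeding and 5.85% (5.62% to 6.08%) with ethanol. In experiment 1 the shares, 3.37% (2.59% to 4.37%) and 2.96% (2.36% to 3.72%), could not be separated.

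The 5p strands differed in direction in experiment 1 and were all below the pair-fed level in experiment 2, where their sum was at 0.806 of it (0.649 to 0.998). In experiment 1 the sum was at 0.797 (0.364 to 1.72). miR-29b-2-5p was lower in the ethanol-fed libraries, at 0.0879 of the pair-fed level in experiment 1 (0.00204 to 0.605, from 11 reads to 1) and at 0.589 in experiment 2 (0.321 to 1.05). miR-29c-5p was at 2.42 times the pair-fed level in experiment 1 (0.697 to 10.6) and at 0.845 in experiment 2 (0.661 to 1.08). Among single 5p strands, only the interval of miR-29b-2-5p in experiment 1 leaves out 1, and it rests on 12 reads in all. The interval of the sum in experiment 2 also leaves out 1, but narrowly, with an upper end of 0.998. For miR-29a-5p the ratios of 1.45 (0.166 to 17.4) and 0.925 (0.385 to 2.19) say little at this depth.

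With the tables as 2 pairs, no member passed the test. The log2 ratios of both tables were fitted with limma over the 283 microRNAs that had at least 10 reads in each, which leaves 1 residual degree of freedom per microRNA before limma shares the spread between them. The mean log2 ratio of miR-29a-3p was 0.30 (95% interval -0.32 to 0.91, limma, Benjamini-Hochberg adjusted p = 0.867), that of miR-29b-3p was 0.34 (-0.44 to 1.12, adjusted p = 0.867) and that of miR-29c-3p was 0.22 (-0.68 to 1.11, adjusted p = 0.902). The intervals of all 3 guides hold levels below and above the pair-fed level. For miR-29b-2-5p the mean was -1.69 (-5.34 to 1.97, limma adjusted p = 0.867) and for miR-29c-5p 0.42 (-1.68 to 2.53, adjusted p = 0.916), while miR-29a-5p had too few reads in experiment 1 to enter. Of all 283 microRNAs, limma called 0 at an adjusted p under 0.05, and 1 higher and 3 lower at an unadjusted p under 0.05.

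**Figure D3:**
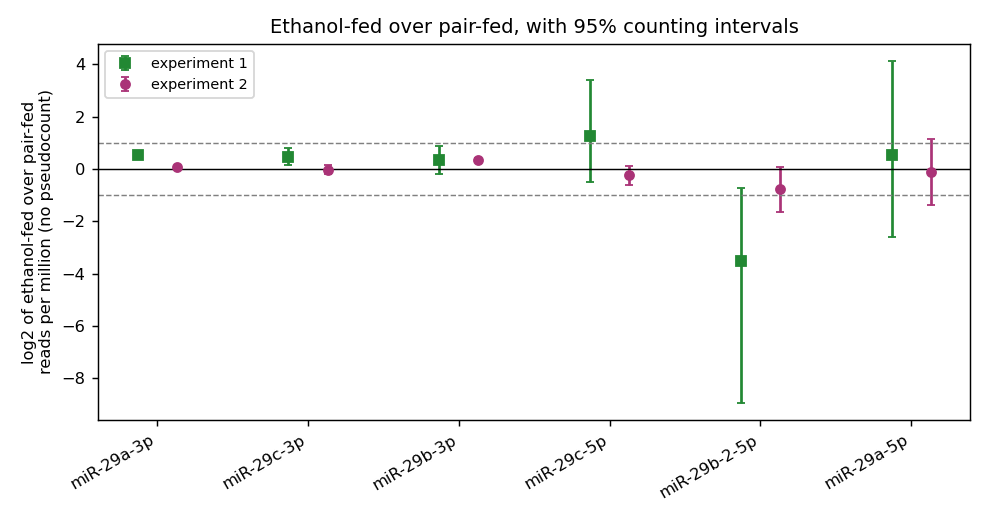
Log2 of ethanol-fed over pair-fed RPM for each member in experiment 1 (green squares) and experiment 2 (purple circles), with 95% exact counting intervals; dashed lines mark 2-fold. The guide strands lie between 0.98-fold and 1.46-fold, and the widest intervals belong to the 5p strands of experiment 1, which rest on 1 to 11 reads per library.

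The members were then set beside all microRNAs. A difference was counted when the log2 ratio, with 1 read added to each library, reached 1 in either direction, and a microRNA entered the count with 10 or more reads over both libraries of a table. In experiment 1, 5 of the 6 members passed this minimum, all but miR-29a-5p. Of these 5, miR-29c-5p was counted as higher (log2 ratio 1.09) and miR-29b-2-5p as lower (-2.63), beside 12.6% of all 302 tested microRNAs higher and 12.9% lower, or 25.5% in either direction. Both members had at most 11 reads in a library. In experiment 2 all 6 members passed and 0 were counted in either direction, beside 10.7% of 469 microRNAs higher and 15.1% lower, or 25.8% in either direction. A microRNA listed at 0 in 1 library of experiment 2 entered with 0 reads, though it may have had up to nearly 10. This can raise these percentages, by an amount that was not tested. The median log2 ratio was 0.46 over the 5 members in experiment 1 and -0.07 over the 6 in experiment 2, beside -0.01 and 0.00 over all tested microRNAs. In experiment 1, 77.5% of the tested microRNAs had a lower log2 ratio than miR-29a-3p (0.55), 74.2% lower than miR-29c-3p (0.46) and 69.9% lower than miR-29b-3p (0.34). In experiment 2, these percentages were 52.7% for miR-29a-3p (0.05), 46.9% for miR-29c-3p (-0.03) and 73.1% for miR-29b-3p (0.34).

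**Figure D4:**
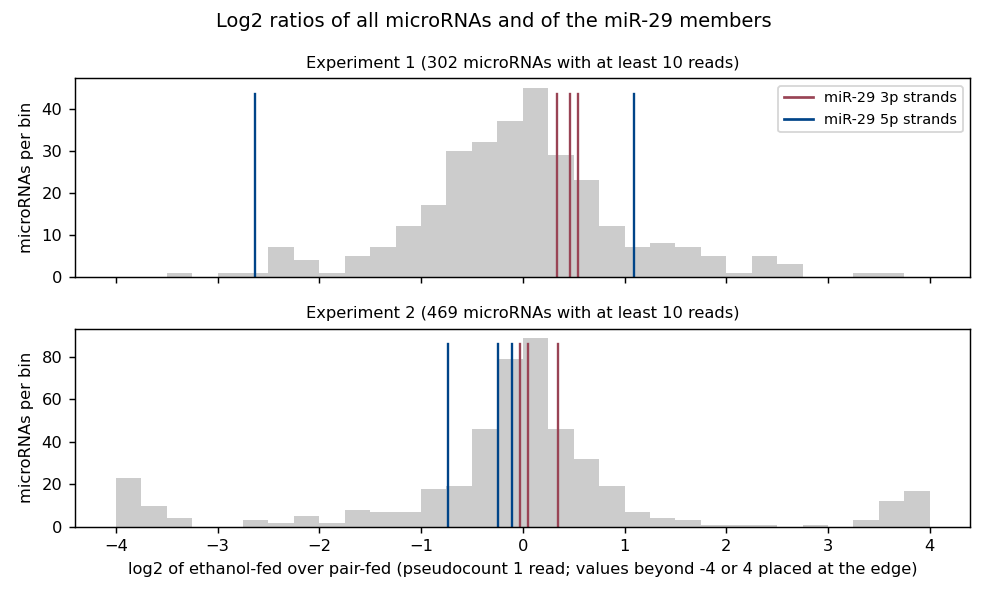
Number of microRNAs (grey) by the log2 of the ethanol-fed to pair-fed ratio, with 1 read added, in experiment 1 (302 microRNAs) and experiment 2 (469), with lines at the miR-29 guide strands (red) and 5p strands (blue). The guide strands lie between -0.03 and 0.55, inside the main body of both distributions, and the outer groups of experiment 2 include microRNAs listed at 0 in 1 library.

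Liver holds several cell types, and in whole tissue fewer cells of a type and less RNA per cell cannot be told apart. The counts of markers that follow stand beside all tested microRNAs. Of these, 147 had a log2 ratio above 0 and 155 below 0 in experiment 1, and 236 and 233 in experiment 2. The mesenchyme markers were miR-143-3p, miR-145a-5p, miR-199a-3p, miR-199a-5p and miR-214-3p, taken for mesenchymal cells as a whole and not for stellate cells alone. They were higher in 4 of 5 members with ethanol in experiment 1, with a median log2 ratio of 0.62. Their summed level was nearly unchanged there, at 96549.9 and 96122 RPM, since miR-143-3p makes up most of it (96276 and 95735 RPM). In experiment 2 they were higher in 2 of 5 members (median -0.00), with sums of 19699.6 and 24782 RPM. The endothelial markers miR-126a-3p and miR-126a-5p were higher in both experiments, with median log2 ratios of 0.34 and 0.20 and sums of 3854 and 5142 RPM in experiment 1 and of 22335 and 26332 RPM in experiment 2.

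Markers of blood cells differed between the libraries as well. The erythroid markers (miR-486a-5p, miR-451a and both strands of miR-144) were higher in 4 of 4 members with ethanol in experiment 1, with sums of 11559 and 33915 RPM, and lower in 4 of 4 in experiment 2, with sums of 1826 and 1152 RPM. The leukocyte markers were lower in 4 of 4 members in both experiments, with sums of 404 and 335 RPM and of 872 and 463 RPM. The epithelial markers (the miR-200 family) had sums of 61.4 and 61.9 RPM in experiment 1, where miR-200c-3p was at 0 with pair feeding, and of 519 and 887 RPM in experiment 2, where 5 of 5 were higher. The pancreas markers had sums of 85.1 and 48.5 RPM in experiment 1, nearly all from miR-375-3p (85.1 and 47.5 RPM, log2 ratio -0.84). There miR-217-5p and miR-216a-5p were not listed, and miR-216b-5p had 0 and 4 reads. In experiment 2 the sums were 5.92 and 113 RPM, and 4 of 4 were at least 2-fold higher, beside 10.7% of all tested microRNAs. miR-375-3p had a log2 ratio of 2.81 there, and pair feeding left miR-216a-5p and miR-216b-5p at a listed 0. The part of these cell types in the miR-29 values was not tested.

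Other microRNAs known from liver fibrosis were described in the same way. These lists are not separate from the markers above. miR-199a-5p, miR-199a-3p and miR-214-3p were also mesenchyme markers, miR-122-5p a hepatocyte marker and miR-150-5p a leukocyte marker. Of 8 microRNAs known to be raised in fibrosis, 1 was at least 2-fold higher and 1 lower in experiment 1 and 0 and 1 in experiment 2, with median log2 ratios of 0.04 and -0.01. In experiment 1 this is 2 of 8, beside 25.5% of all tested microRNAs in either direction, and in experiment 2 it is 1 of 8, beside 25.8%. The higher one was miR-214-3p, with 3 and 20 reads, and the lower ones were miR-33-5p in experiment 1, with 19 and 3 reads, and miR-34a-5p in experiment 2, with 119 and 44.5 RPM. miR-21a-5p, the most abundant of them, had log2 ratios of 0.11 and -0.12. Of 9 microRNAs known to oppose fibrosis, only miR-133a-3p in experiment 1 was at least 2-fold higher, with 2 and 18 reads, and 0 were lower in either experiment, or 1 of 9 and 0 of 9 beside the same percentages. Their median log2 ratios were -0.17 and 0.07, near those of all tested microRNAs. miR-146a-5p (log2 ratios -0.72 and -0.80), miR-122-5p, miR-150-5p and miR-19b-3p were lower with ethanol in both experiments. miR-101a-3p, miR-133a-3p and miR-194-5p were higher in both. miR-378a-3p and miR-30c-5p were lower in experiment 1 and higher in experiment 2.

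The level of miR-29a-3p over the 4 libraries was most like that of the miR-26 family. Among 112 other microRNAs with at least 100 reads in every library, likeness was taken as the Euclidean distance between log2 RPM values centred on their mean over the 4 libraries. The nearest were miR-26a-5p (distance 0.11), miR-26b-5p (0.20), miR-30b-5p (0.50), miR-203-3p (0.51) and miR-221-3p (0.51), beside a median distance of 2.70. miR-26a-5p had 5542 and 7448 RPM with pair feeding and with ethanol in experiment 1 and 48312 and 53089.9 RPM in experiment 2. With 4 libraries, the likeness mostly describes the difference between the tables.

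To show what the shared seed can pair with, the longest annotated 3′ UTR of each protein-coding gene (GENCODE vM21, GRCm38) was searched on the transcript strand for TGGTGCT, the complement of the seed, and for the 8-letter form TGGTGCTA, each of which contains the shorter match. TGGTGCT was present in 25 of 44 collagen genes (56.8%), beside 2758 of 21037 genes (13.1%). At least 2 matches were present in 25% of collagen genes and 2.03% of all genes, and the 8-letter form in 36.4% and 2.86%. The median 3′ UTR was of like length, 1032 nt for collagen genes and 960.0 nt for all genes, and the matches numbered 0.693 and 0.106 per kilobase. A match of letters is a description and not a site, and no messenger RNA levels were analysed here.

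The following matches are shown because their genes encode the main scar collagen, a second fibrillar collagen, the basement membrane collagen and elastin, and Sirt1, a deacetylase gene that the study followed. Each is read on the strand of its gene, and capitals mark the letters that match.
Col1a1, chr11:94952524-94952545, plus strand: tgggaaggaatttcTGGTGCTA
Col3a1, chr1:45348968-45348989, plus strand: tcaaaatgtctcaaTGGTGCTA
Col4a1, chr8:11199761-11199782, minus strand: ccaccgtcacaacaTGGTGCTA
Eln, chr5:134703736-134703757, minus strand: gacctcatcaacgtTGGTGCTA
Sirt1, chr10:63320080-63320101, minus strand: gagcactcaaaactTGGTGCTc

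Col1a1, Col3a1 and Col4a1 had 1 match each in the 3′ UTR searched, Eln had 3, and Col5a1, which encodes a collagen of the same fibrils, had 4. Col1a2, the partner chain of Col1a1, had 0 in its 882 nt. Sirt1 had 1 match of 7 letters, at bases 549 to 555 of the 3′ UTR. Of the 13 other genes searched, which were listed partly as known targets, 12 held the match. They included the DNA methylation regulators Dnmt3a (5 matches), Tet1 (7), Tet2 (5) and Tet3 (8), and the survival factor Mcl1 (1). The 13 genes had longer 3′ UTRs, with a median of 1631 nt beside 960.0 nt for all genes, which leaves more room for a match. Their matches numbered 0.989 per kilobase, beside 0.106 for all genes.

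**Figure D5:**
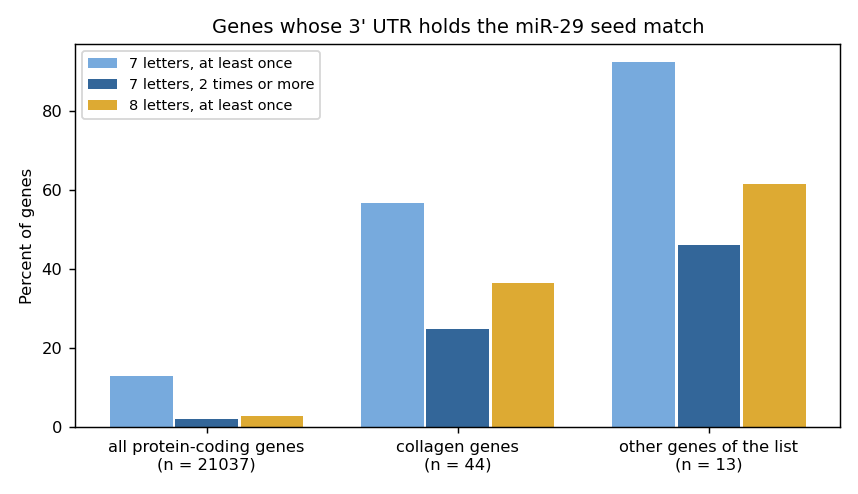
Percentage of genes whose longest annotated 3′ UTR holds the miR-29 seed match of 7 letters at least once, 2 times or more, or in its 8-letter form, for all protein-coding genes (n = 21037), collagen genes (n = 44) and 13 other genes listed partly as known targets. The 7-letter match is present in 13.1%, 56.8% and 92.3% of these genes, whose median 3′ UTRs are 960.0, 1032 and 1631 nt long.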

How the data were processed

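Small RNAs of 18 to 40 nt were collected by gel from total liver RNA and sequenced. The authors deposited read counts per microRNA for experiment 1, without normalization, and RPM (scaled to 1000000 reads on microRNAs) for experiment 2. The second table also holds the authors' log2 fold changes and p-values, which were not used. The submitters' processing notes name the build mm8, so deposited names were matched to RefSeq sequences (GRCm38.p6) by name only. Of 1915 names, 1623 matched. Neither the aligner nor the annotation nor any filter is given in the sources used here.

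RPM was computed from the counts of experiment 1. In experiment 2, 97% of 336 pair-fed and 97% of 333 ethanol-fed values under 200 RPM were whole multiples of 1 step, within the rounding to 2 decimals, and reads are the values divided by that step. The log2 ratio used a pseudocount of 1 read, which understates changes of rare microRNAs, whereas folds used none. Intervals at 95% were Wilson for levels and shares and exact conditional binomial for folds. The log2 ratios of both tables were also fitted as 2 pairs with limma 3.58.1 (R 4.3.3, moderated with a trend on level, Benjamini-Hochberg adjustment), an alternative added after seeing the data. Ratios, intervals and this fit were tested on simulated data. The changes simulated were larger than those of the guide strands, so recovery of differences as small as theirs was not tested. Alternatives were other scalings, pseudocounts, minimums and treatment of zeros. The members are the 6 listed names. Named genes were these, miR-29b-1-5p, the 5 microRNAs most like miR-29a-3p, and fixed marker, fibrosis and target lists. Members and lists were chosen with earlier results of these data known, and other names after values were seen. Scripts ran in Python 3.11.15 (scipy 1.17.1, pandas 2.3.3, numpy 2.4.6), with plots from matplotlib 3.10.9.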

Additional observations from a re-analysis of the deposited data

How the results depend on the processing

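The log2 ratio of the 6 members together was 0.53 in experiment 1 and 0.07 in experiment 2, and stayed within its counting interval under every scaling and pseudocount tried. A smaller pseudocount can hardly move sums of this size. Replacing zeros could not move any member value or the sum, as all 6 members were above 0 in experiment 2. Of 48 values of single members under these alternatives, those with zeros replaced included, 48 stayed within their counting intervals and 0 changed direction. For the 5p strands of experiment 1 this says little, as their intervals were wide, such as -8.94 to -0.73 for miR-29b-2-5p. The share of guide reads from miR-29a-3p, with miR-29c-3p left out of the sum, was 96.3% and 96.8% with pair feeding and with ethanol in experiment 1 and 95.1% and 94.1% in experiment 2, as follows from the smaller sum. The background counts depended on the minimum. With no minimum, 99 microRNAs were higher and 102 lower in experiment 1, against 38 and 39 at 10 reads, since rarer microRNAs then count. At 100 reads or more, 10 were higher and 9 lower in experiment 1, and 12 and 24 in experiment 2, against 50 and 71. miR-29c-5p and miR-29b-2-5p, the members counted in experiment 1, fall below that minimum. With the tables as 2 pairs (a replicate block over both experiments, chosen after seeing the data), the log2 ratio of the 6 members was 0.30, outside the counting intervals of 0.43 to 0.62 in experiment 1 and 0.05 to 0.09 in experiment 2, as follows from averaging unlike ratios. miR-29a-3p (0.30) also lay outside its interval in both experiments. In experiment 2 so did miR-29b-2-5p, miR-29c-3p and miR-29c-5p. The last of these went from -0.24 to 0.42 and miR-29c-3p from -0.03 to 0.22, so both changed sign. With 2 pairs, an exact sign-flip test cannot go below p = 0.5. The pairs rest on the tables, and whether they hold different animals is not stated. In experiment 2 values under about 10 reads are not listed.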
